A study of Mus musculus with 40 samples.

Results

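The 7 genes described here encode the core of the MHC class II antigen presentation machinery. They are H2-Aa, H2-Ab1, H2-Eb1, H2-DMa, H2-DMb1, Cd74 and Ciita, taken by name from the 15958 genes of the deposited expression table, and all 7 were present in it. The genes were measured by RNA-seq in the duodenum, the ileum and the liver of male wild-type C57BL/6 mice after small bowel resection (SBR) or a sham operation. Sham mice had the bowel cut and rejoined, and SBR mice lost 50 to 60% of the small intestine according to the sample labels, while the study's text gives a larger extent. From 3 weeks after surgery, the mice were given a daily oral dose of vehicle or of WUSTL0717, a liver X receptor (LXR) agonist described as gut-restricted, at 30 mg/kg for 7 weeks. The mice were 8 weeks old at surgery, and every sham mouse and every SBR control received vehicle, so no group shows the compound without resection. Duodenum and ileum each had 3 sham, 4 SBR vehicle and 4 SBR WUSTL0717 libraries in a first batch. Liver had 5 sham, 8 SBR vehicle and 5 SBR WUSTL0717 libraries in a second batch, which gives 40 libraries in all.

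MHC class II molecules display peptides from ingested material and pathogens to CD4+ T cells. Dendritic cells, B cells and macrophages carry them at rest, and the epithelium of the small intestine can carry them as well. H2-Aa and H2-Ab1 encode the alpha and the beta chain of the molecule called I-A, and H2-Eb1 encodes the beta chain of I-E, whose alpha chain is not made in the C57BL/6 strain. Cd74, the invariant chain, holds the new molecule in shape and fills its groove on the way to the endosome, where H2-DM, made of H2-DMa and H2-DMb1, exchanges the remnant of Cd74 for a peptide. Ciita is the transactivator that switches on the other genes and is itself induced by interferon gamma.

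In the GRCm38 annotation, Ciita is on the plus strand at chr16:10480059-10528418, and 5 of the 7 genes lie within 197 kb of chromosome 17. H2-DMa spans chr17:34119541-34139101, H2-DMb1 spans chr17:34153072-34160230, H2-Ab1 spans chr17:34257689-34269419 and H2-Eb1 spans chr17:34305867-34316674, all on the plus strand. H2-Aa is on the minus strand at chr17:34282744-34287823.

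Class II promoters are known for an X box, bound by RFX and CREB proteins, and a Y box, which holds the letters ATTGG bound by NF-Y. Promoter windows reaching from 250 bases before to 50 bases after the gene start were found in RefSeq (GRCm38.p6) for 4 members, namely H2-Aa, H2-Eb1, H2-DMb1 and H2-DMa. The last 100 bases before the RefSeq start are printed for the members whose window has ATTGG within that stretch. Capitals mark ACNGATG, a part of the X box, and ATTGG where they occur on the coding strand. The RefSeq start of H2-DMb1 is at 34153191, which lies 119 bases inside the gene as annotated above, whereas the starts of H2-Eb1 and H2-Aa are the same in both sources.
H2-Eb1, chr17:34305767-34305866, plus strand: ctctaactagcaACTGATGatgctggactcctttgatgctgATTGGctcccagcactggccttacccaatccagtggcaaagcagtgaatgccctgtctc
H2-DMb1, chr17:34153091-34153190, plus strand: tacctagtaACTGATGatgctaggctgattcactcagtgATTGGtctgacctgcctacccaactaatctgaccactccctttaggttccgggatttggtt
H2-Aa, chr17:34287824-34287923, minus strand: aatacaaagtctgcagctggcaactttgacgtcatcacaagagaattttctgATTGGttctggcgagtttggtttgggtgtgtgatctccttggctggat

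In H2-Eb1 the ACNGATG match began 88 bases before the start and ATTGG began 29 bases after it. In H2-DMb1 the corresponding match began 91 bases before the start and ATTGG began 30 bases after it. H2-Aa had ATTGG 48 bases before the start, and its only ACNGATG match was on the opposite strand outside the printed stretch. H2-DMa had no ACNGATG in either of its windows, and a single ATTGG, at position -198 from 1 of its starts. Both strands were searched in all 32851 windows of the table, and in the members' windows no match of either motif overlapped a match of the other. ACNGATG was found in 9.85% and ATTGG in 37.4% of these windows. ATTGG beginning 25 to 35 bases after ACNGATG on the coding strand was found in 18 windows, or 0.0548%. These matches describe letters in a window and were not tested for binding.

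All values below are log2 TPM, where TPM is a transcript's share of its library scaled for gene length, as corrected by the authors for batch. The correction set the mean of a gene in the intestinal batch close to its mean in the liver batch. The 2 means were within 1 log2 unit of each other for 99.4% of the genes and for all 7 members. Alb, the albumin gene of hepatocytes, thus had a mean of 9.69 in ileum and 9.35 in liver. Levels in liver and intestine were therefore not compared, and the liver label could not be checked against its markers. The sources used here do not say whether the correction also rescaled the spread of a gene within a batch. All differences, fold sizes and SDs below are thus those of the corrected values. The labels of the intestinal regions could be checked within their batch, since Fabp6, the ileal bile acid binding protein, ranged from 5.87 to 8.54 in ileum and from -1.69 to 0.53 in duodenum. No counts were used and the depth of each library is unknown, and the median gene of a library ranged from 2.13 to 3.09 in duodenum, from 3.18 to 3.82 in ileum and from 3.05 to 3.77 in liver.

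In the liver, all 7 class II genes were higher after SBR. The comparison of SBR vehicle with sham vehicle asks what resection alone did to the liver. The antigen-presenting chains and Cd74 rose 3.17- to 3.68-fold, the H2-DM chains and Ciita 1.80- to 2.43-fold, and no SBR vehicle library overlapped with any sham library for any member. Ciita, the transactivator, was at 2.20, 2.02, 2.56, 2.52 and 2.27 in the 5 sham livers and ranged from 3.24 to 3.62, with a median of 3.34, in the 8 SBR vehicle livers. The lowest SBR vehicle liver was therefore above the highest sham liver. The difference in Ciita was 1.06 (SE 0.11, 95% CI 0.82 to 1.30; limma, adjusted p = 8.48e-07).

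Among the peptide-binding chains, H2-Eb1 showed the largest difference of the 7 genes. It was at 6.14, 5.57, 6.22, 6.41 and 5.98 in the sham livers and between 7.64 and 8.33, with a median of 7.93, in the SBR vehicle livers. The difference was 1.88 (SE 0.15, CI 1.57 to 2.19), a 3.68-fold rise, with a limma adjusted p of 3.67e-08. The genes of the I-A chains behaved alike. H2-Ab1 was at 6.29, 5.85, 6.36, 6.68 and 6.26 in sham and between 7.65 and 8.44, with a median of 8.05, in SBR vehicle livers, a difference of 1.77 (SE 0.16; limma, adjusted p = 1.05e-07). H2-Aa was at 5.32, 4.89, 5.35, 5.69 and 5.04 in sham and between 6.48 and 7.41, with a median of 6.99, in SBR vehicle livers, a difference of 1.72 (SE 0.16; limma, adjusted p = 1.63e-07).

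Cd74, the invariant chain, had the highest level of the 7 genes and rose by 1.66 (SE 0.15, CI 1.35 to 1.97; limma, adjusted p = 1.26e-07). Its sham values were 8.20, 7.68, 8.05, 8.39 and 8.04, against 9.35 to 10.14, with a median of 9.71, after SBR. The peptide exchange chains rose less. H2-DMb1 went from 3.87, 3.64, 3.92, 4.01 and 3.70 to between 4.91 and 5.37, with a median of 5.08, a difference of 1.28 (SE 0.11; limma, adjusted p = 7.96e-08). H2-DMa had the smallest difference, 0.85 (SE 0.11; limma, adjusted p = 5.92e-06), from 2.98, 2.62, 3.20, 3.12 and 3.06 in sham to between 3.54 and 4.08, with a median of 3.88, in SBR vehicle livers.

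These 7 of 7 calls stand against a broad change in the liver, where 5953 of 15901 genes tested, or 37.4%, were called higher and 15.6% were higher without overlap between groups. For each member the exact two-sided permutation test gave p = 0.000777, the smallest that 5 against 8 libraries allow. The median difference of the members was 1.66, and that of all genes 0.25. The share of tested genes that rose further than a member was 0.859% for H2-Eb1, 1.17% for H2-Ab1, 1.33% for H2-Aa, 1.48% for Cd74, 3.55% for H2-DMb1, 5.99% for Ciita and 9.51% for H2-DMa. With every library centred on its median, the median of all genes moved to -0.06 and that of the members to 1.36, and all 7 were still called. Leaving out any 1 library also left all 7 called.

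**Figure D1:**
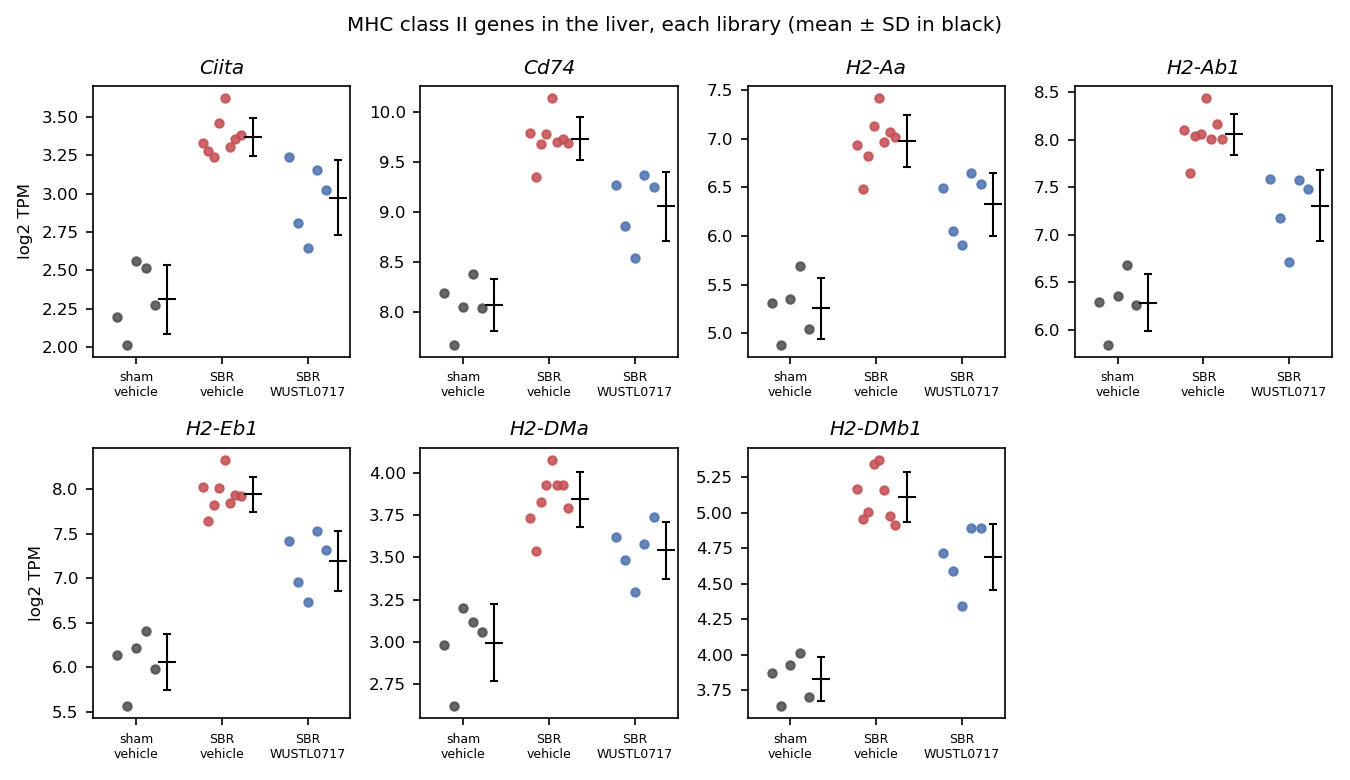
Level of each of the 7 class II genes (log2 TPM, vertical axis) in every liver library of the sham vehicle, SBR vehicle and SBR WUSTL0717 groups; points are libraries and bars are the mean with its SD. The 8 SBR vehicle livers lie above the 5 sham livers for each gene, and the 5 SBR WUSTL0717 livers lie between the mean levels of both.

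WUSTL0717-treated SBR livers had lower levels of the class II genes than vehicle-treated SBR livers, and 5 of the 7 genes passed the test. H2-Ab1 and H2-Eb1 fell most, each by 0.75, a 1.68-fold decrease. In the 5 treated livers H2-Eb1 was at 7.42, 6.96, 6.74, 7.53 and 7.31, every value below the lowest SBR vehicle liver at 7.64 (SE of the difference 0.15, CI -1.06 to -0.44; limma, adjusted p = 0.0120). H2-Ab1 was at 7.59, 7.18, 6.71, 7.58 and 7.48, likewise all below the lowest vehicle liver at 7.65 (SE 0.16; limma, adjusted p = 0.0141). H2-DMb1, at 4.71, 4.59, 4.34, 4.89 and 4.89, lay below its lowest vehicle value of 4.91 by a small margin, and fell by 0.43 (SE 0.11; limma, adjusted p = 0.0344). For these 3 genes the exact permutation p was 0.000777. Of all genes tested, 0.308% were lower without overlap and 423, or 2.66%, were called lower.

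Cd74 was at 9.27, 8.86, 8.54, 9.37 and 9.25 in the treated livers, with 4 of 5 values below every vehicle liver, and fell by 0.68 (SE 0.15; limma, adjusted p = 0.0175). H2-Aa was at 6.50, 6.06, 5.91, 6.64 and 6.53, with 2 of 5 values below every vehicle liver, and fell by 0.65 (SE 0.16; limma, adjusted p = 0.0260). Both genes thus overlapped between the groups. Ciita and H2-DMa missed the threshold. Ciita was at 3.24, 2.81, 2.64, 3.15 and 3.02, a difference of -0.40 (SE 0.11, CI -0.64 to -0.16; limma, adjusted p = 0.0563). H2-DMa was at 3.62, 3.48, 3.29, 3.58 and 3.74, a difference of -0.30 (SE 0.11, CI -0.53 to -0.07; limma, adjusted p = 0.140). At an unadjusted p under 0.05, all 7 members were lower, as were 8.72% of all genes, and the median difference of the members was -0.65 against 0.02 for all genes.

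The calls with the compound rested on individual libraries, although every difference was below 0 in each setting tried. Without WUSTL0717 replicate 2 or without WUSTL0717 replicate 3, the livers with the lowest class II levels of their group, none of the members passed (adjusted p from 0.0531 to 0.269 and from 0.0551 to 0.385), while the number of genes called over the whole table was 113 and 93, against 652 with all libraries. The differences of the members changed less, from -0.75 to -0.30 with all libraries, from -0.72 to -0.29 without replicate 2 and from -0.64 to -0.24 without replicate 3. Without WUSTL0717 replicate 1, 3 members passed. With only both SBR groups in the model 2 passed, without variance moderation, at the same differences, 0 passed, and with library weights or centred libraries all 7 passed.

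No test was run between treated SBR livers and sham livers, and their values are only set side by side. For all 7 members every treated liver was above every sham liver, as were 27.4% of all genes tested. The treated mean was 0.55 above the sham mean for H2-DMa and 1.13 above it for H2-Eb1, and the other members lay between.

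Genes that work with the members were described from lists of named genes. Of the other class II chains, 2 of 6 listed were in the table, and both rose in liver after SBR. H2-DMb2, a near copy of H2-DMb1, rose by 0.91 to a mean of 2.82, and H2-Ob, a chain of the H2-DM inhibitor H2-DO, rose by 0.41 to a mean of 1.52. Reads shared by H2-DMb1 and H2-DMb2 could be counted for neither. Of 10 genes for the factors that act at class II promoters, 4 rose and none fell, close to the 37.4% of all genes that rose, and the median difference of the list was 0.26 against 0.25 for all genes. These were Nfya of NF-Y by 0.50, Rfx5 of RFX by 0.49, and the acetyltransferases Crebbp and Ep300 by 0.35 and 0.28.

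In the list for peptide loading and turnover, 6 of 8 genes tested rose after SBR, against 37.4% of all genes, with a median difference of 0.60 against 0.25. Ctss, the protease cathepsin S that trims the invariant chain, rose by 1.32 from a mean of 6.54 to 7.86. Cd83, which keeps class II at the cell surface, rose by 1.08, Lgmn, an endosomal protease, by 0.78, and Ifi30, the lysosomal thiol reductase, by 0.59. On the route from interferon gamma to Ciita, 9 of 11 genes tested rose and 1, Irf2, fell by 0.27, and the median difference was 0.50, again beside 0.25 for all genes. The receptor chains Ifngr1 and Ifngr2 rose by 0.95 and 0.92, the transcription factor Irf8 by 1.08 and Gbp2, a GTPase induced by interferon, by 0.67. With WUSTL0717, no gene of the 4 lists was called in liver. The differences were -0.36 for H2-DMb2 (limma, adjusted p = 0.178), -0.16 for Rfx5 (adjusted p = 0.600), -0.33 for Irf8 (adjusted p = 0.0913) and 0.32 for Marchf8, a ubiquitin ligase that removes class II from the surface (adjusted p = 0.0553).

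Among cell type markers in the liver, genes of leukocytes and dendritic cells were higher after SBR, beside the 37.4% of all genes that rose, whereas genes of hepatocytes and Kupffer cells were lower or missed the test. All 5 genes of a leukocyte list rose after SBR, among them Coro1a by 1.46 and Ptprc, the CD45 gene, by 0.76. Summed TPM was back-transformed from the corrected values with an offset of 1 assumed, so it compares groups of 1 tissue and is not a share of a library. For these genes it ranged from 39.2 to 54.1 in sham, from 79.1 to 137 in SBR vehicle and from 70.8 to 119 in treated livers. With the compound 1 of the 5, Coro1a, fell, by 0.54 (limma, adjusted p = 0.0477), as did 2.66% of all genes. Of 10 dendritic cell genes listed 4 have values, of which 3 rose after SBR. Itgax, the CD11c gene, went from a mean of 1.83 in sham to 3.85 in SBR vehicle and 3.13 in treated livers and passed in both comparisons, the only 1 of these 4 called with the compound. The summed TPM of the dendritic cell list was 9.23 to 13.3, 21.4 to 31.7 and 16.99 to 26.32 in the same order of groups. The leukocyte and dendritic cell genes that have values were above 0.5 log2 TPM in at least 1 liver, and the other dendritic cell genes listed were not analysed here.

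Of 10 macrophage genes, 6 rose and 1 fell after SBR, and 1 rose and 1 fell with the compound. Of all 15901 genes tested, 37.4% rose and 4.47% fell after SBR, and 229 rose and 423, or 2.66%, fell with the compound. Cx3cr1 had means of 1.17, 3.31 and 2.40 in sham, SBR vehicle and treated livers, and Cd163 had means of 2.89, 1.69 and 2.60, and both genes passed in both comparisons. The 5 genes of Kupffer cells, the resident macrophages of the liver, had 5 differences below 0 after SBR (median -0.37). With the compound they had 5 above 0 (median 0.56), so the signs were opposite to those of the class II genes. In each comparison only 1 of the 5 was called. Timd4 fell by 0.81 after SBR and Clec4f rose by 0.75 with the compound. The mean of the 5 genes was 2.82 to 3.20 in sham, 1.77 to 3.55 in SBR vehicle and 2.89 to 3.49 in treated livers, so the groups overlapped. Among 8 hepatocyte genes, 4 fell after SBR, as did 4.47% of all genes, and all 8 differences were below 0 (median -0.44), and with the compound none was called by limma, all 8 differences were above 0 (median 0.33) and 5 had an unadjusted p under 0.05. Their summed TPM, again from the corrected values, ranged from 2848 to 3814 in sham, from 1613 to 3190 in SBR vehicle and from 2934 to 3767 in treated livers. Of the B cell and T cell genes with values, 2 of 4 and 3 of 6 rose after SBR, shares that rest on few genes beside the 37.4% of all genes, and none of either list was called with the compound. Of 8 epithelial genes 4 rose after SBR, beside 37.4% of all genes, and 2 fell with the compound, beside 2.66%. The median differences of this list were 0.25 and -0.03. Among the called genes was Epcam, which in liver marks the bile ducts and had means of 5.03, 7.71 and 6.61. The marker calls with the compound come from the fit whose 652 calls became 113 without WUSTL0717 replicate 2 and 93 without replicate 3. Whether single marker genes stayed called in those fits was not examined. In bulk tissue, fewer cells of a type and less RNA per cell cannot be told apart, and the part that these cells had in the class II differences was not tested.

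The class II genes were also set against the leukocyte genes of the same library. The mean of the members less the mean of the 5 leukocyte genes was 1.58 to 1.92 in sham, 1.83 to 2.37 in SBR vehicle and 1.68 to 1.97 in treated livers. The means were 1.70 ± 0.13, 2.12 ± 0.17 and 1.81 ± 0.11 (SD, n = 5, 8 and 5), and 1 sham liver, at 1.92, lay above the lowest SBR vehicle liver, at 1.83. The mean of the members alone was 4.61 to 5.26, 6.13 to 6.77 and 5.45 to 6.11 in these groups, with no overlap. The margin between treated and SBR vehicle livers was small, at 6.107 against 6.128. Taken singly, 3 of the 7 members did not overlap between these groups. One SBR vehicle liver, replicate 7, had a mean of 7.95 for pancreas genes against 2.27 to 2.43 in the other livers of its group, and the count of members called was the same in both comparisons without it.

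**Figure D2:**
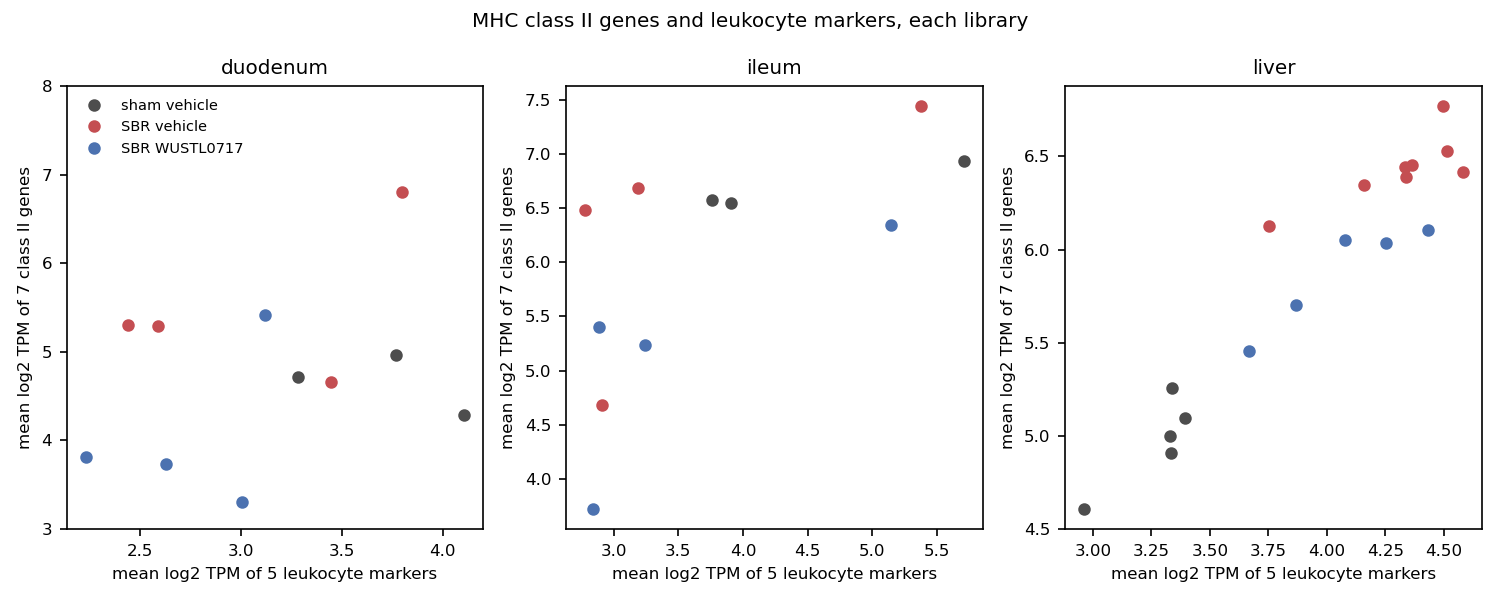
Mean level of the 7 class II genes (log2 TPM, vertical axis) against the mean of 5 leukocyte genes (log2 TPM, horizontal axis), with 1 point per library and colours for the 3 groups in duodenum, ileum and liver. In liver the SBR vehicle points, at 6.13 to 6.77 for the class II genes, lie up and to the right of the sham points, and in ileum 1 library of each group stands to the right.

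In the duodenum, the class II genes differed widely between libraries of the same group, and no member passed the test in either comparison. After SBR, 3 of 4 duodena had H2-Aa above all sham values. H2-Aa was at 4.84, 4.60 and 4.86 in sham and at 7.35, 6.11, 4.78 and 5.85 in SBR vehicle duodena, a difference of 1.26 (limma, adjusted p from 0.350 to 0.873 over the members). Cd74 was at 7.80, 7.07 and 8.09 in sham and at 10.39, 8.19, 7.99 and 8.40 in SBR vehicle duodena. Ciita was at 2.12, 2.09 and 2.72 in sham and at 3.13, 1.92, 2.39 and 2.31 in SBR vehicle duodena, so all sham values lay within the range of the SBR vehicle group.

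The differences after SBR ranged from 0.13 for Ciita to 1.32, with a median of 1.09, while the median of all genes was -0.36. None of the 7 was below an unadjusted p of 0.05, and the exact permutation p ranged from 0.0857 to 0.829, where 3 against 4 libraries cannot give less than 0.0286. In this comparison 0 of 15093 genes, or 0%, were called by limma, against 2426 at an unadjusted p under 0.05, and centred libraries and library weights gave 96 and 2497 calls, with no member among them. The CIs of the members reached from -1.06 to 3.01 and held 0 for all 7. For 5 members they also held the difference estimated in liver. For H2-Eb1 and Ciita they ended at 1.83 and 0.93, within the liver CIs of 1.57 to 2.19 and 0.82 to 1.30. Duodenum and liver were not compared by a test. SBR vehicle replicate 1 was highest for all 7 genes, and without it the median was 0.54 and the difference was -0.16 for H2-Eb1 and -0.10 for Ciita.

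With WUSTL0717, 3 of 4 treated duodena lay below every SBR vehicle duodenum for 6 of the 7 genes. H2-Aa was at 3.55, 3.90, 5.95 and 3.79, H2-Ab1 at 4.68, 4.39, 7.50 and 5.12, and Cd74 at 6.55, 5.41, 8.31 and 6.73 in treated duodena. Replicate 3 was thus the high library for each of them, and it overlapped with the SBR vehicle group. H2-Ab1 had been at 8.66, 7.10, 5.81 and 6.86 with vehicle. The differences ranged from -1.99 for Cd74 to -0.73 for Ciita, with a median of -1.52 against 0.04 for all genes.

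At an unadjusted p under 0.05, 6 of the 7 members were lower, which 1.65% of all genes were. After adjustment by limma none passed (adjusted p from 0.602 to 0.961), with 0.00663% of genes called lower, and the exact permutation p ranged from 0.0571 to 0.114. The share of genes that fell further was 0.0928% for Cd74 and 4.53% for Ciita. H2-Eb1 was at 8.06, 6.11, 5.48 and 6.07 with vehicle and at 4.63, 4.15, 6.45 and 4.66 with the compound. With library weights the median difference was -0.98.

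In the duodenum 0 of 5 leukocyte genes were called in either comparison. Only 0 and 39 genes were called over the whole table, so this cannot show that they did not differ. All 5 differences were below 0 after SBR (median -0.77), and 3 were below 0 with the compound (median -0.24). The means were 3.28 to 4.11 in sham, 2.44 to 3.80 in SBR vehicle and 2.23 to 3.12 in treated libraries. Genes of the pancreas, which adjoins the duodenum, varied much more, with means of 3.75 to 7.66, 2.03 to 7.04 and 4.76 to 7.85 in the same groups. SBR vehicle replicate 1, with the highest class II mean (6.81), had the lowest pancreas mean of its group (2.03), and WUSTL0717 replicate 3, with the highest class II mean of the treated duodena (5.41), had the lowest of its own group (4.76). The same libraries had the highest leukocyte means of their groups, 3.80 and 3.12. The part of these genes in the result was not tested. No gene of the 4 pathway lists was called in duodenum. The gene of smallest p in each list differed after SBR by 1.68 (Jak2), -1.12 (Nfya), 0.84 (Ctsd) and -0.19 (H2-DMb2), with limma adjusted p from 0.274 to 0.730. With the compound these genes were Nlrc5, the transactivator of MHC class I, at -1.53 (limma, adjusted p = 0.647), Nfyb at 0.79, Cd83 at 0.49 and H2-DMb2 at -0.40.

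**Figure D3:**
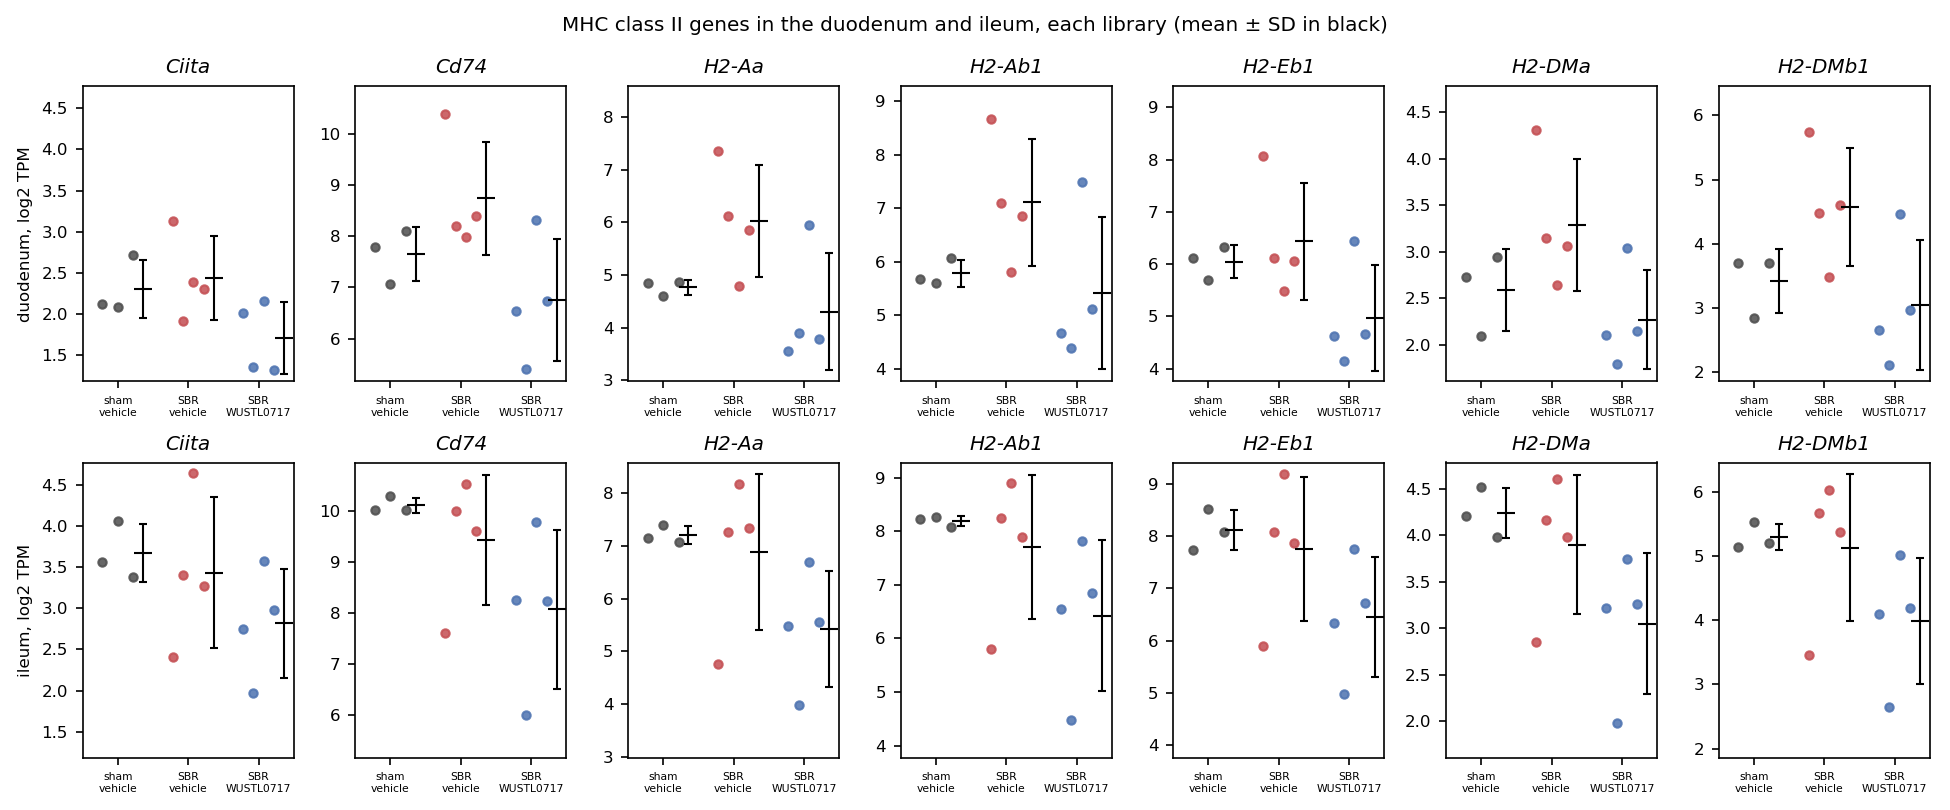
Level of each class II gene (log2 TPM, vertical axis) in every duodenal and ileal library of the 3 groups; points are libraries and bars are the mean with its SD. Libraries of SBR groups scatter over 2 to 4 log2 units for the peptide-binding chains and Cd74, and groups overlap in most panels.

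The ileum was taken beyond the join of the bowel. None of the 7 genes passed the test there. In sham ilea H2-Aa was at 7.15, 7.40 and 7.08, H2-Ab1 at 8.22, 8.26 and 8.08 and H2-Eb1 at 7.74, 8.51 and 8.08. In SBR vehicle ilea these chains scattered more widely, with H2-Aa at 4.77, 7.27, 8.19 and 7.35, H2-Ab1 at 5.79, 8.24, 8.91 and 7.90 and H2-Eb1 at 5.89, 8.07, 9.20 and 7.88. Replicate 1 was the lowest and replicate 3 the highest of this group for each of the 7 genes. The differences after SBR ranged from -0.67 for Cd74 to -0.16, with a median of -0.34 against 0.07 for all genes (limma, adjusted p from 0.963 to 0.994). With library weights the median was -1.10, no member was called and 279 genes were.

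No member was below an unadjusted p of 0.05 in that comparison, and 55 of 15772 genes, or 0.349%, were called. The exact permutation p ranged from 0.543 to 0.971. Without SBR vehicle replicate 1, the median difference became 0.16.

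With WUSTL0717, Cd74 was at 8.25, 6.01, 9.78 and 8.23 in the ileum, against 7.61, 9.99, 10.53 and 9.60 with vehicle. Ciita was at 2.75, 1.97, 3.57 and 2.98, against 2.41, 3.40, 4.64 and 3.27. Both groups overlapped for these genes. The differences ranged from -1.47 to -0.61, with a median of -1.28 against 0.0031 for all genes, and none passed (limma, adjusted p from 0.747 to 0.899; 0 members and 433 genes lower at an unadjusted p under 0.05). No gene, or 0%, was called lower, and the exact permutation p ranged from 0.171 to 0.343. With library weights the median was -0.14. It was -0.68 without WUSTL0717 replicate 2, -0.84 without SBR vehicle replicate 3 and -1.92 without SBR vehicle replicate 1, and no member was called in any of these.

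Treated ilea were also set beside sham ilea, as values without a test. For 5 of 7 members, namely H2-Aa, H2-Ab1, H2-DMa, H2-DMb1 and Cd74, every treated ileum was below every sham ileum, as were 588 genes, or 3.73%. H2-DMb1 was at 5.14, 5.53 and 5.21 in sham and at 4.09, 2.65, 5.02 and 4.20 in treated ilea. The mean difference ranged from -2.03 for Cd74 to -0.85 for Ciita. In duodenum all 7 members overlapped between these groups, with mean differences from -1.07 to -0.32.

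In each group of the ileum, 1 library had a high mean of leukocyte genes. These were sham replicate 2 at 5.71, SBR vehicle replicate 3 at 5.38 and WUSTL0717 replicate 3 at 5.15, against 2.78 to 3.91 in the other ilea. The same libraries had the highest class II means of their groups, 6.94, 7.44 and 6.34. Without all 3, the median differences were -0.63 after SBR and -1.27 with the compound, and no member was called in either comparison. In ileum no gene of the 4 pathway lists was called either. The gene of smallest p in each list differed after SBR by 1.05 (Ifngr1), 1.89 (Ctsl), -0.55 (Kat2b) and -0.84 (H2-DMb2), with limma adjusted p from 0.218 to 0.899. With the compound these genes were the endosomal protease gene Ctsd at 1.15 (limma, adjusted p = 0.455), Irf1, a target of interferon gamma, at -1.77 (adjusted p = 0.484), Rfxank at 0.61 and H2-DMb2 at 0.26.

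**Figure D4:**
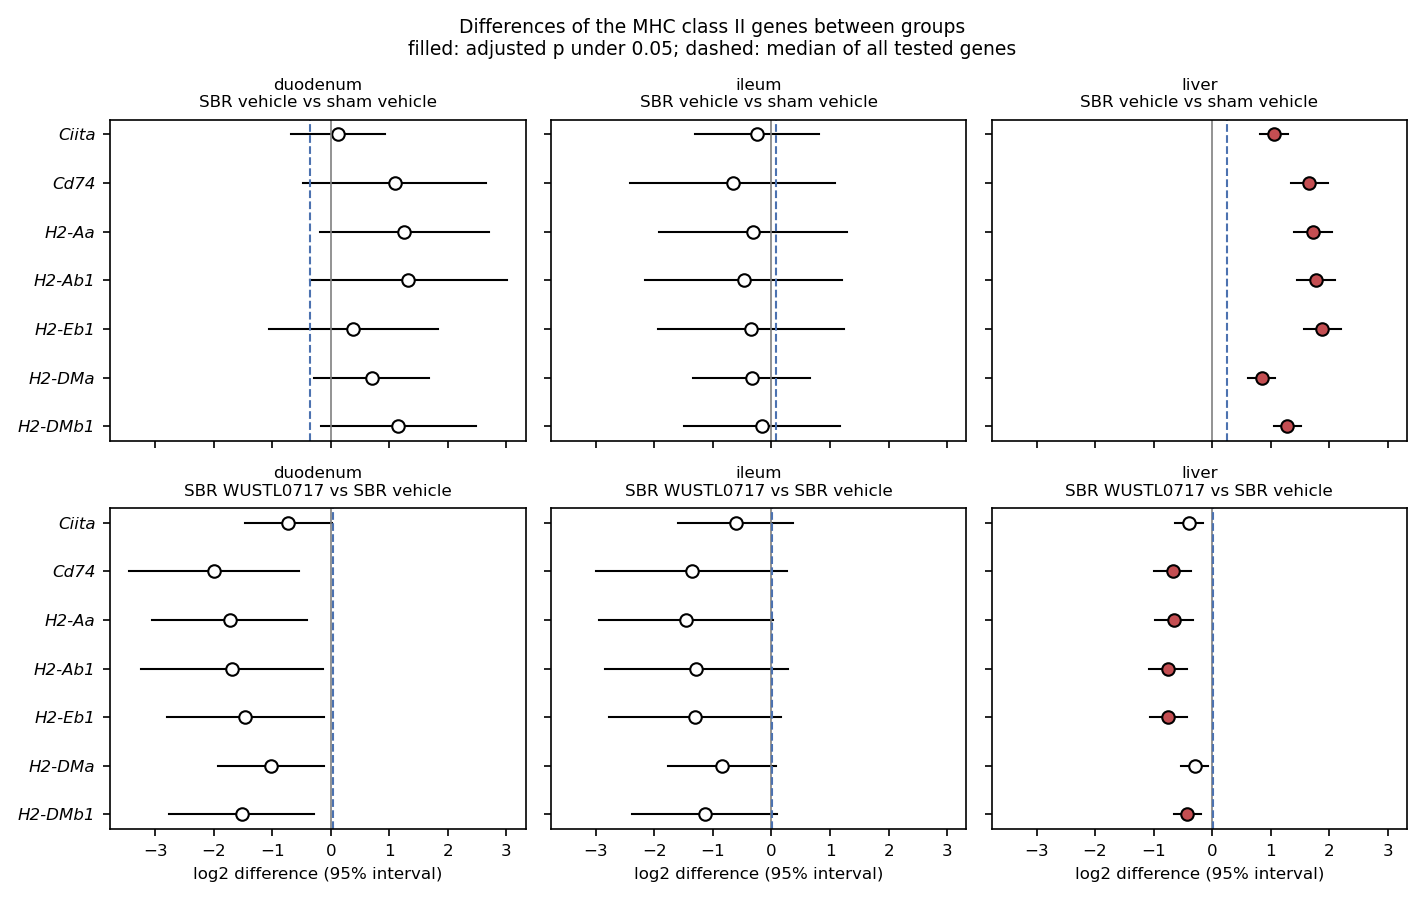
Difference of each class II gene between groups (log2 TPM, horizontal axis) with its 95% CI from limma, in liver, duodenum and ileum, for SBR vehicle less sham and for SBR WUSTL0717 less SBR vehicle. The intervals in liver lie to the right of 0 after SBR and to the left of 0 with the compound, while the intestinal intervals are wider and those after SBR include 0.

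The ileum had higher levels of all 7 genes than the duodenum, averaged over the 3 groups. H2-Eb1 had means of 5.82 in duodenum and 7.44 in ileum, a difference of 1.62, and Cd74 had means of 7.72 and 9.20, a difference of 1.48. H2-Aa differed by 1.48, H2-Ab1 by 1.34, Ciita by 1.15, H2-DMb1 by 1.13 and H2-DMa by 1.01 (limma, adjusted p from 0.000356 to 0.0132). Of all genes 62.0% were called higher and their median difference was 0.83. With each library centred on its median, the members' differences were 0.26 to 0.87 and none was called (adjusted p from 0.0944 to 0.471), while the median of all genes was 0.07 and 7339 genes were called in either direction, against 11396 without centring. Of the transcription list, 8 of 10 genes were higher in ileum and Rfxank was lower. The sources used here do not say whether duodenal and ileal libraries came from the same mice, and they were fitted as independent.

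Whether an effect differed between the regions was tested as an interaction. For SBR, the ileal less the duodenal effect ranged from -1.80 to -0.37 and 0 of 7 members passed (limma, adjusted p from 0.459 to 0.799), with 0.0754% of genes called. The median was -1.32, and it was -0.76 without ileal SBR vehicle replicate 1 and -2.15 with library weights, where 1989 genes and no member were called. For WUSTL0717, the difference ranged from 0.11 to 0.63, with CIs from -1.83 to 2.81, and 0 of 7 passed at an adjusted p of 1, with 0.0251% of genes called.

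The members were ranked by the corrected levels per length. The correction brought the means of each gene in both batches together. An order shared by liver and intestine is thus partly built in, and need not be that of uncorrected levels. Cd74 was the highest in 40 of 40 libraries and Ciita the lowest in 39 of 40. In liver, the order of the means was Cd74, H2-Ab1, H2-Eb1, H2-Aa, H2-DMb1, H2-DMa and Ciita in all 3 groups. H2-Ab1 and H2-Eb1 were closest, at 8.06 ± 0.22 and 7.94 ± 0.20 (SD, n = 8) in SBR vehicle livers, and within a library H2-Ab1 was the higher in 17 of 18 livers. Their means were 7.36 and 7.21 over all livers and 6.75 and 6.59 over the intestinal libraries. The order of these genes in liver therefore cannot be told apart from the correction. Their means changed places in duodenal sham and in both ileal SBR groups.

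Over the libraries of a tissue, each pair of members was correlated with an r of 0.69 to 0.98 in duodenum (11 libraries), 0.92 to 0.99 in ileum (11 libraries) and 0.96 to 1.00 in liver (18 libraries). With the group means removed, r was 0.56 to 0.97, 0.89 to 0.99 and 0.73 to 0.97 over the 21 pairs. All members of a library share its cell makeup and its scaling.

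The genes most like the class II genes were named for each tissue by Pearson's r, over its libraries, with the mean z-score of H2-Aa, H2-Ab1, H2-Eb1 and Cd74. In liver these were Runx3, Sema4d, Pdgfb, Sorl1 and Tlr9, with r of 0.98 to 0.99 over 18 libraries in 3 groups that differ in level. In ileum they were H2-Q4, Tap2, Cd3e, Tap1 and Cd7, with r of 0.90 to 0.94. In duodenum they were Psmb8, Igtp, Tap1, Gm12250 and Stx18, with r of 0.84 to 0.91. Tap1, Tap2 and Psmb8 serve MHC class I peptide supply and lie in the same gene region as the class II genes, and Cd3e and Cd7 are genes of T cells and other lymphocytes.

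Cd74 lies apart from the other members, on the plus strand at chr18:60803848-60812652. Some members share their locus with other annotated genes. Ciita overlaps Dexi, H2-DMa overlaps Brd2, and H2-Eb1 overlaps Gm20513, each on the opposite strand, H2-DMa also overlaps CR974462.3 on its own strand, and Cd74 contains Mir5107. Reads in such stretches were not assigned to either gene if they were ambiguous, and the strand setting of the counting is not given in the sources used here.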

How the data were processed

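RNA-seq libraries were made from total RNA after removal of ribosomal RNA. Per the submitters' notes, reads were aligned with STAR to GRCm38 and counted per gene with featureCounts, keeping uniquely aligned, unambiguous reads. The authors then applied TMM scaling, computed TPM, dropped genes with zero TPM, took the log2 and removed the batch effect with ComBat. The deposited values used here are these log2 TPM values for 40 libraries and 15958 genes. They are not counts, the offset before the log is not given in the sources used here, and 2752 values were below 0. Because batch and tissue type coincide, liver and intestine cannot be told apart from batch.

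Groups were taken from the sample labels. Differences were fitted with limma 3.58.1 in R 4.3.3, with a variance trend, over the 3 groups of a tissue (the 6 intestinal groups for regions), on genes whose mean over these libraries reached 1 (log2 TPM). P-values were adjusted by Benjamini-Hochberg over all genes tested, with a threshold of 0.05, and are two-sided. Each member also had an exact two-sided permutation test. The sample labels do not tie libraries to animals, but the study gives its group sizes for RNA-seq as mice, so each library of a tissue was taken as 1 mouse. The precision is set by 3 to 8 libraries per group. Alternatives were no filter, a filter at 3, offsets of 5 and 0.1 with an offset of 1 assumed, centred libraries, library weights, the compared groups alone, no variance moderation, a replicate block, leaving out each library, and, chosen after seeing the data, leaving out the leukocyte-high ilea. Summaries and figures used Python 3.11.15, pandas 2.3.3 and matplotlib 3.10.9. The fitting was tested on simulated data.

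The members and all gene lists were chosen with earlier results of these data known. Members were all named, pathway genes were named as up to 4 called genes of smallest p per list or, where none was called, the gene of smallest p in each list, and Irf2 and single marker genes were named after their values were seen. No 2 libraries held the same values.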

Additional observations from a re-analysis of the deposited data

Results flagged for a closer look

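In 1 of 49 groups of 4 to 10 libraries tested, a single library stood far from the others. H2-Aa was at 5.95 in WUSTL0717 replicate 3 of the duodenum, and the other treated duodena were at 3.55 to 3.90, so that the gap to the nearest library made up 0.853 of the range of the group. Chance marks about 1 in 20 such groups.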

How the results depend on the processing

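After SBR, the count of 7 members called in liver held in every setting, apart from a filter at 3, which left 6 members to test, all called. The count of 5 members lower with WUSTL0717 in liver became 2 with the compared groups alone and 0 without variance moderation, and it ranged from 0 to 6 with each library left out. The 7 members higher in ileum than in duodenum became 0 with centred libraries. With library weights, the ileal difference of Ciita with the compound was 0.00074, and with an offset of 5 the difference of its WUSTL0717 effect between regions was -0.059. These causes were not tested. With each library left out, duodenal differences after SBR ranged from -0.16 to 0.70 for H2-Eb1 and from -0.10 to 0.33 for Ciita. In ileum after SBR the median ranged from -0.75 to 0.16, with H2-Aa from -0.75 to 0.39, H2-Ab1 from -0.88 to 0.16, H2-Eb1 from -0.83 to 0.27, H2-DMa from -0.57 to 0.014, H2-DMb1 from -0.46 to 0.39 and Ciita from -0.64 to 0.10. For the WUSTL0717 effect between regions the median ranged from -0.23 to 0.81, with H2-Aa from -0.45 to 0.81, H2-Ab1 from -0.23 to 1.10, H2-Eb1 from -0.47 to 0.64, H2-DMa from -0.18 to 0.53, H2-DMb1 from -0.17 to 0.86 and Ciita from -0.23 to 0.51. Over all genes, the 652 called with the compound in liver became 134 with the compared groups alone, 0 without moderation, 3133 with centred libraries and 2819 with library weights. Replicate numbers met no rule for pairing the libraries. Deviations of libraries with the same number correlated from -0.32 to 0.31 within tissues, and from 0.07 to 0.45 (sham), -0.14 to 0.13 (SBR vehicle) and -0.08 to 0.32 (WUSTL0717) between duodenum and ileum, where 2 of 3, 2 of 4 and 2 of 4 correlated best with their own number. A replicate block left the count of members called the same in every comparison, with 5 called for the compound in liver. In the corrected values, the SD of the members within groups was 0.60 to 1.16 in intestine and 0.18 to 0.29 in liver. These spreads may have been changed by the correction and were not compared.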
